A study of Mus musculus with 6 samples.

Results

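The phagocyte NADPH oxidase and its accompanying proton channel were followed in microglia, the macrophages native to the nervous system, after sorting from mouse optic nerve. The genes were chosen by symbol, as 5 genes of the phagocyte oxidase (Cybb, Cyba, Ncf1, Ncf4 and Rac2) and the voltage-gated proton channel gene Hvcn1. Of these 6 genes, 5 have values among the 37447 genes of the deposited table, and Cyba was not analysed here. The study concerns optic glioma in a mouse model of neurofibromatosis type 1, and its only design factor is the presence of a Cre transgene. FMC mice (4 libraries) were Nf1 flox/mut and also carried GFAP-Cre, a recombinase under a promoter active in astroglial cells. FM mice (2 libraries) were Nf1 flox/mut without Cre, so that every mouse carried 1 mutant allele of Nf1. All mice were C57BL/6 and 3 months old. FMC 2, FMC 3 and FM 1 are labelled male, and FMC 1, FMC 4 and FM 2 female. The labels call the libraries biological replicates without saying whether a library holds 1 animal or several. Microglia are not the cells in which GFAP-Cre is meant to act, so the comparison concerns microglia from nerves with and without recombination in neighbouring cells.

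The phagocyte oxidase passes electrons from cytosolic NADPH across a membrane to oxygen and so makes superoxide. Its catalytic core is a membrane heterodimer of gp91phox, also called NOX2 and encoded by Cybb, and p22phox, encoded by Cyba. At rest the organizer p47phox (Ncf1) and p40phox (Ncf4) wait in the cytosol, and on stimulation they move to the membrane together with a Rac GTPase. Rac2 is the Rac form of blood cells, and Rac1 is made in nearly all cells. Electron flow leaves charge and acid behind, and the proton channel HV1, encoded by Hvcn1, lets protons out and so sustains the enzyme. In microglia the oxidase is known as the main source of superoxide after phagocytic or inflammatory stimulation.

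Sequences around the transcript start are shown for Cybb and Ncf1, the genes with the widest and the narrowest spread over the libraries. They are context for the levels of the transcription factors described further on. Both windows are RefSeq sequences of the GRCm38.p6 build, run 5′ to 3′ along the gene from 250 bases before the start of the transcript to 50 bases after it, and lie on the minus strand. The Cybb window is chrX:9469275-9469574 and the Ncf1 window is chr5:134229576-134229875. Capitals mark CCAAT and GAGGAA, which is a core of sites bound by the myeloid factor PU.1, searched on both strands (as ATTGG and TTCCTC on the other).
Cybb: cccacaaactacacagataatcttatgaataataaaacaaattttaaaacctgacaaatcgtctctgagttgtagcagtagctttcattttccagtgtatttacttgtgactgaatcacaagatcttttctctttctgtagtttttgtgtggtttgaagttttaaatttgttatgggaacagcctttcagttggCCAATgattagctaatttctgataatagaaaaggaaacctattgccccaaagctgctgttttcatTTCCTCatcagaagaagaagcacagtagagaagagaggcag
Ncf1: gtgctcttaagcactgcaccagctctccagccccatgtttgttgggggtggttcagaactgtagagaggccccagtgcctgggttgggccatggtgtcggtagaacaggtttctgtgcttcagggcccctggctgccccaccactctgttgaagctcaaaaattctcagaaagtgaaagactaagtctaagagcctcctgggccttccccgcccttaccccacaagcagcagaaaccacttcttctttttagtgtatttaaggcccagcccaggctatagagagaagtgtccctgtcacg
The Cybb window holds 1 CCAAT and 1 GAGGAA, the second read on the opposite strand, and the Ncf1 window holds neither. Relative to the start of the Cybb transcript, CCAAT begins at -56 and GAGGAA at 10, inside the transcript. Of 32851 RefSeq windows of this length, 37.4% hold CCAAT and 28.3% hold GAGGAA on either strand, and a match of letters does not show a bound site. For Ncf4, Rac2 and Hvcn1 no window was used here.

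Values are FPKM, fragments scaled for transcript length and library size, so that levels can be set side by side between genes. An FPKM is a level relative to the other RNA of its library, not a fraction of a fixed total. In such bulk samples fewer cells of a type and less RNA per cell cannot be told apart. Summed FPKM per library ran from 420285 to 674799, and 13390 to 15562 genes reached 1 FPKM. From the steps between low values, depth relative to FMC 2 was estimated as 1.17 to 3.34 over the other libraries, highest in FM 2. The direct comparison of FMC 2 with FM 2 lay 1.00 (log2), or 2-fold, from that joint estimate. The comparisons of FM 2 with FMC 1, FMC 3, FMC 4 and FM 1 lay within 0.01 of it. The cause of the 2-fold gap was not tested. All 12 microglia markers, among them P2ry12, Tmem119 and Sall1, were measured in every library, and they summed to 2963 to 4552 FPKM in FMC and to 3178 and 5714 FPKM in FM. Nf1 stood at 48.0, 58.1, 55.6 and 138 FPKM in FMC 1 to FMC 4, against 39.3 and 50.0 FPKM in FM 1 and FM 2. A level in microglia does not check a deletion driven from the GFAP promoter.

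All 5 oxidase and channel genes were well above the low end of the table in every library, with 15.8 FPKM (Rac2 in FMC 3) as the lowest single value. Their mean over the 6 libraries was higher than that of 85.5% (Rac2) to 95.4% (Cybb) of the 18208 genes tested. Ordered by mean FPKM over the 6 libraries they ran Cybb (91.2), Ncf1 (82.5), Ncf4 (55.2), Hvcn1 (46.0) and Rac2 (32.4). For 3 of the 4 pairs of neighbours the mean difference was smaller than its spread: Cybb lay above Ncf1 in 3 of 6 libraries, Ncf4 above Hvcn1 in 4 of 6 (0.23 ± 0.54, SD over libraries, log2(FPKM + 1)) and Hvcn1 above Rac2 in 3 of 6. For Ncf1 over Ncf4, higher in 5 of 6 libraries, the difference of 0.65 was about as large as its SD of 0.63.

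**Figure D1:**
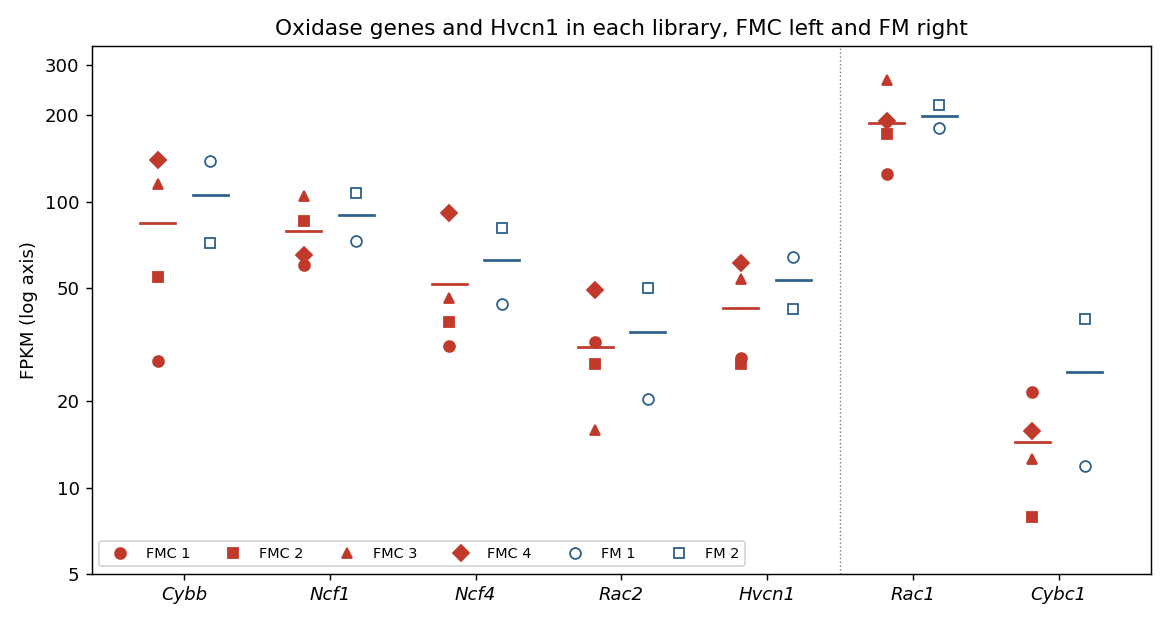
FPKM on a log axis of the 5 oxidase and channel genes (left of the dotted line) and of 2 further genes of the complex (right of it) in each library, with the 4 FMC libraries as filled red symbols left of the 2 FM libraries as open blue symbols. Horizontal lines are group means, and in all 7 genes the FMC and FM libraries overlap.

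The question put to these genes was whether optic nerve microglia of FMC mice carry more or less oxidase RNA than those of FM mice. No difference was detected: all 5 genes averaged lower in FMC, by 0.15 to 0.50 on the log2(FPKM + 1) scale, none passed the test across all genes, and in all 5 the FMC and FM libraries overlapped. Among all genes tested, limma at an adjusted p below 0.05 called 0 higher (0%) and 5 lower (0.0275%) in FMC, and at an unadjusted p under 0.05 there were 208 higher and 765 lower. In 4.34% of genes tested every FMC library was higher than either FM library, and in 8.22% every one was lower. The median log2 difference of all genes tested was -0.12, and 56.5% of them were lower in FMC, against a median of -0.33 over the 5 oxidase and channel genes.

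Cybb (ENSMUSG00000015340), the catalytic subunit, lies on the X chromosome from 9012377 to 9064897 in mm9. It stood at 27.6, 54.3, 115 and 140.0 FPKM in FMC 1 to FMC 4, against 139 and 71.5 FPKM in FM 1 and FM 2. FMC 1 was lowest, and FMC 4 and FM 1 were highest and nearly equal. The means were 84.3 ± 52.2 FPKM in FMC (SD, n = 4) and 105 ± 47.5 FPKM in FM (SD, n = 2). The log2 difference was -0.50 ± 0.69 (SE), with a 95% interval from -2.06 to 1.07 (limma, adjusted p = 0.999). That interval runs from 0.240 of the FM level to 2.10 times it, so a change of 2-fold in either direction could not be told from none. The difference rested on single libraries, and was -0.06 without FMC 1 and -0.02 without FM 1. The highest library held 5.07 times the FPKM of the lowest, and the residual SD of the fit, 0.97 (log2), exceeded that of 71.6% of the 543 tested genes with a mean FPKM within 25% of that of Cybb.

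Ncf1 (ENSMUSG00000015950, chromosome 5 from 134695922 to 134705495 in mm9) encodes p47phox, whose phosphorylation starts assembly. It stood at 59.9, 85.8, 105 and 64.8 FPKM in FMC 1 to FMC 4, against 72.9 and 107 FPKM in FM 1 and FM 2. It varied least of the 5 genes, with 1.78-fold between its highest and lowest libraries and a residual SD smaller than in most genes of like mean (18.6% had a smaller one). The log2 difference was -0.20 ± 0.45 (SE), with a 95% interval from -1.22 to 0.83 (limma, adjusted p = 0.999). It turned to 0.08 without FM 2. The gene overlaps Gtf2ird2 by 4304 bases in the table, and Gtf2ird2 stood at 2.74 to 15.9 FPKM. How reads were divided between them is unknown.

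Ncf4 (ENSMUSG00000071715, chromosome 15 from 78075230 to 78093010 in mm9) encodes p40phox, which binds phosphatidylinositol 3-phosphate on phagosomes. It stood at 31.3, 37.8, 46.1 and 91.2 FPKM in FMC 1 to FMC 4, against 43.8 and 80.9 FPKM in FM 1 and FM 2. FMC 4 and FM 2 were high and the other 4 libraries lay below 50 FPKM. The log2 difference was -0.33 ± 0.56 (SE), with a 95% interval from -1.58 to 0.93 (limma, adjusted p = 0.999), and it turned to 0.11 without FM 2.

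Rac2 (ENSMUSG00000033220), which lies on the same chromosome from 78389598 to 78403213, encodes the GTPase that completes the enzyme. It stood at 32.2, 27.1, 15.8 and 49.1 FPKM in FMC 1 to FMC 4, against 20.4 and 49.8 FPKM in FM 1 and FM 2. FMC 4 and FM 2 were again the highest, and FMC 3 the lowest. The log2 difference was -0.15 ± 0.60 (SE), with a 95% interval from -1.51 to 1.21 (limma, adjusted p = 0.999). Its sign was not stable, and it was 0.47 without FM 2 and 0.13 without FMC 3. The longest coding Rac2 transcript of GENCODE M21 shares 0 words of 50 bases with transcripts of Rac1 or Rac3.

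Hvcn1 (ENSMUSG00000064267, chromosome 5 from 122656812 to 122692306 in mm9), the proton channel gene, stood at 28.3, 27.0, 53.4 and 60.8 FPKM in FMC 1 to FMC 4, against 64.2 and 42.2 FPKM in FM 1 and FM 2. FMC 1 and FMC 2 were low and FM 1 was highest, and the groups overlapped. The log2 difference was -0.38 ± 0.52 (SE), with a 95% interval from -1.57 to 0.81 (limma, adjusted p = 0.999). The end of Hvcn1 overlaps Tctn1 by 1012 bases in the table, and 52.1% of the 50-base words of its longest coding transcript in GENCODE M21 also occur in Tctn1 transcripts on one strand or the other. Tctn1 stood at 13.4, 7.30, 6.22 and 12.7 FPKM in FMC 1 to FMC 4, against 11.7 and 10.4 FPKM in FM 1 and FM 2, and did not follow the order of Hvcn1.

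**Figure D2:**
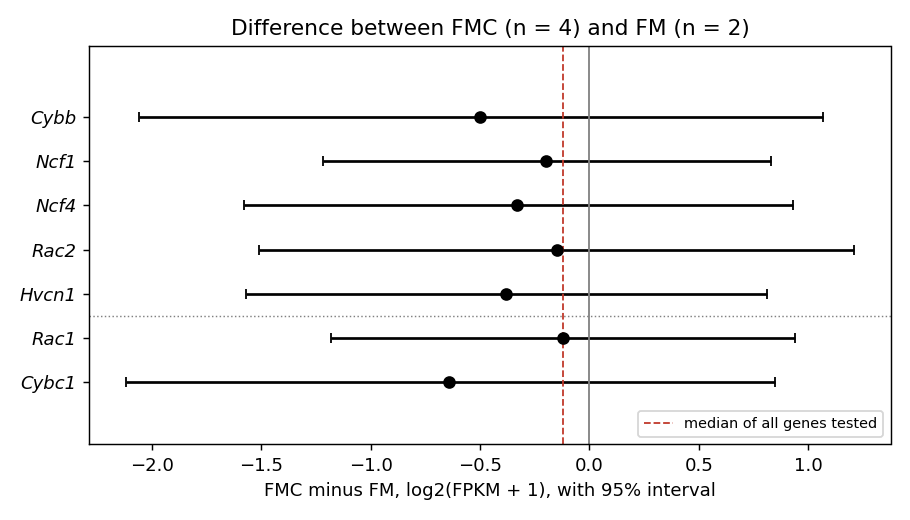
Difference between FMC and FM in log2(FPKM + 1) (points) with 95% intervals from limma (bars) for the 5 oxidase and channel genes and, below the dotted line, 2 further genes of the complex. Each point lies left of 0 and every interval spans 0, and the dashed line at -0.12 is the median of all genes tested.

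Exact two-sided permutation tests over the 6 libraries, which cannot give a p under 0.0667 with groups of 4 and 2, gave p = 0.733 for Cybb, 0.533 for Ncf1, 0.667 for Ncf4, 0.733 for Rac2 and 0.467 for Hvcn1. The 12 microglia markers had the same sign, with 12 of 12 lower in FMC, as were 56.5% of all genes tested. The markers had a median log2 difference of -0.24. Past the threshold were 0 of 12 markers and 0.0275% of all genes tested. With each library centred on the mean of these markers, the differences became -0.18 for Cybb, 0.12 for Ncf1, -0.01 for Ncf4, 0.17 for Rac2 and -0.07 for Hvcn1, and the median of all genes tested became 0.20. The part of marker level in these differences was not tested further.

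Values for 2 further genes of the complex, Rac1 and Cybc1, overlapped between the groups too. Rac1 was the most abundant of the 7 genes, at 125, 172, 267 and 191 FPKM in FMC 1 to FMC 4 and 180.4 and 218 FPKM in FM 1 and FM 2, and its level lay above that of Rac2 in all 6 libraries. Of the 50-base words of its longest coding transcript, 55.0% also occur in Daglb. Cybc1, a chaperone needed for stable gp91phox, is listed under its older symbol BC017643 and stood at 21.5, 7.88, 12.6 and 15.7 FPKM in FMC 1 to FMC 4, against 11.9 and 39.0 FPKM in FM 1 and FM 2. It was highest in FM 2. Its difference of -0.64 ± 0.65 on the log2 scale (SE; limma, adjusted p = 0.994) turned to 0.18 without that library. Counting these 2, 7 of 7 genes averaged lower in FMC, as did 56.5% of all genes tested. The test was passed by 0 of 7 and by 0.0275% of all genes tested. The libraries overlapped in all 7. Among all genes tested, 4.34% were higher and 8.22% lower in every FMC library.

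The subunits did not vary as a block. Measured as the distance from a gene's own mean over the 6 libraries in log2(FPKM + 1), FMC 1 stood at -1.48 for Cybb and at -0.60 for Hvcn1, but at 0.11 for Rac2. FMC 3 stood at 0.54 for Cybb and 0.29 for Hvcn1, but at -0.87 for Rac2. Averaged over the 5 genes the distance was highest in FMC 4 (0.50) and lowest in FMC 1 (-0.62).

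**Figure D3:**
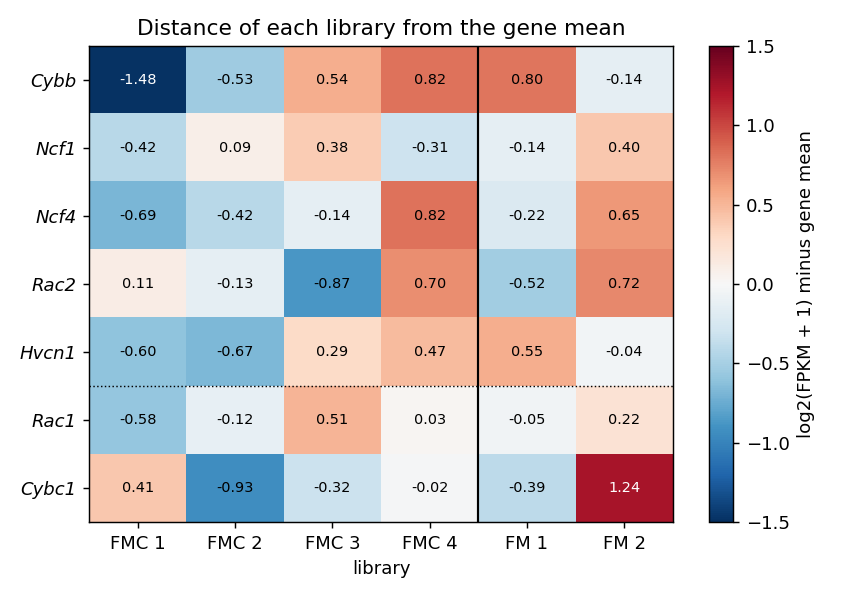
Distance of each library from the mean of the gene over the 6 libraries, in log2(FPKM + 1), for the 5 oxidase and channel genes and, below the dotted line, 2 further genes of the complex, with FMC left of the vertical line and FM right of it. Cybb and Hvcn1 share their low libraries (FMC 1 and FMC 2) and their high ones (FMC 3, FMC 4 and FM 1), whereas Ncf4 and Rac2 are highest in FMC 4 and FM 2.

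Likeness between genes was measured as the root mean square difference between their centred log2(FPKM + 1) values over the 6 libraries. Cybb and Hvcn1 were close (0.42): 0.84% of the 9879 genes compared (mean of at least 5 FPKM) were closer to Cybb than Hvcn1 was, and 5.87% were closer to Hvcn1 than Cybb was. Rac1 was slightly nearer to Hvcn1 than Cybb was (0.40, with 5.20% of genes closer). Cybb was far from Rac2 (1.09), with 50.4% of genes closer. Ncf1 was closest to Rac1 (0.20), and Ncf4 to Rac2 and Rac1 (0.48 each). These are descriptions over 6 libraries, and the genes of a library share its depth and composition.

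The 5 genes nearest to Cybb over all genes were Gtf2h4 (0.18), a subunit of the general transcription factor TFIIH, Eapp (0.19), Tlr4 (0.21), the receptor for bacterial lipopolysaccharide, Ndufs1 (0.22), a subunit of mitochondrial complex I, and Tia1 (0.22), an RNA-binding protein of stress granules. Tlr4 stood at 21.6, 52.2, 74.0 and 98.0 FPKM in FMC 1 to FMC 4 and at 98.0 and 44.1 FPKM in FM 1 and FM 2, the order of Cybb except that FMC 2 and FM 2 changed places. The nearest to Hvcn1 were Rnf115 (0.07), Exoc1 (0.09), a subunit of the exocyst, Cspp1 (0.10), Evi2a (0.13) and Zfc3h1 (0.15). Evi2a stood at 78.5, 68.5, 135 and 179.8 FPKM in FMC 1 to FMC 4 and at 151 and 128 FPKM in FM 1 and FM 2.

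The balance between subunits was compared within libraries, where the scaling of a library cancels. Cybb minus Ncf1, on the log2(FPKM + 1) scale, was -1.09, -0.65, 0.14 and 1.10 in FMC 1 to FMC 4, against 0.92 and -0.57 in FM 1 and FM 2. Membrane and organizer subunit RNA thus changed order between libraries of the same genotype. Cybb minus Rac2 spanned the widest range, with -0.21, 0.98, 2.79 and 1.49 in FMC 1 to FMC 4, against 2.70 and 0.51 in FM 1 and FM 2. Cybb minus Hvcn1 was the steadiest, at -0.03, 0.98, 1.09 and 1.19 in FMC 1 to FMC 4, against 1.10 and 0.75 in FM 1 and FM 2. The FMC minus FM difference in balance was -0.30 for Ncf1, -0.17 for Ncf4, -0.35 for Rac2 and -0.11 for Hvcn1, and exact permutation tests gave p from 0.733 to 0.867 (0.867 after adjustment over the 4 differences).

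**Figure D4:**
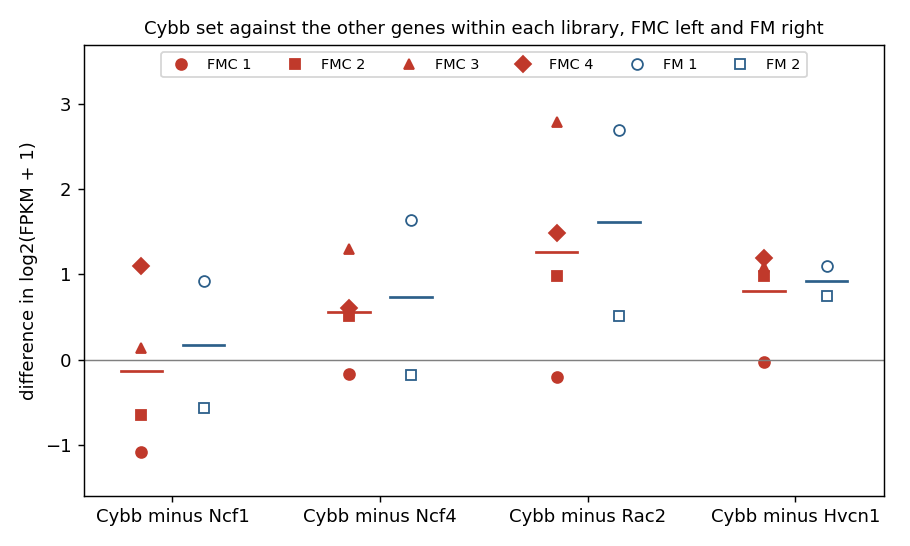
Difference between Cybb and each of the other 4 genes in log2(FPKM + 1) within each library, FMC (filled red) left of FM (open blue), with group means as lines. The groups overlap for every pair, and FMC 1 is the lowest library in each except Cybb minus Ncf4, where FM 2 lies just below it.

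Sex is crossed with genotype, with 2 FMC and 1 FM library of each sex. The FMC minus FM difference of Ncf1 was 0.37 in males and -0.77 in females. For Cybb it was -0.80 in males and -0.19 in females, and for Hvcn1 -0.74 in males and -0.02 in females. The difference between the sexes was 1.14 ± 0.72 (SE) for Ncf1 and -0.61 ± 1.54 (SE) for Cybb, male minus female (limma interaction test, adjusted p = 0.999 for each). No count of genes passing this test is given, because it was not counted over all genes. Each sex has a single FM library, so a sex difference and a difference between those libraries cannot be told apart.

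Dates in the titles are 1 day apart for FMC 2 and FM 1 and for FMC 3 and FM 2, and what was done on those dates is not stated. In that pairing Cybb was lower in FMC 2 than in FM 1 (log2 difference -1.34) and higher in FMC 3 than in FM 2 (0.68), and Hvcn1 likewise (-1.22 and 0.33). Rac2 did the reverse, with 0.39 in FMC 2 against FM 1 and -1.59 in FMC 3 against FM 2. Ncf1 differed little in either pair (0.23 and -0.03), and Ncf4 was lower in FMC in both (-0.21 and -0.80). FMC 3 is labelled male and FM 2 female.

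Genes around the oxidase were read from 5 lists. No member of any list passed the test across all genes, which only 0.0275% of all genes tested passed. In the list of other Nox family and assembly genes, which holds Rac1 and Cybc1, 8 of 13 were abundant enough to test, 2 higher and 6 lower in FMC, with a median log2 difference of -0.08 against -0.12 over all genes tested. Rap1a, a small GTPase found with the membrane heterodimer, averaged 38.3 ± 13.6 FPKM in FMC (SD, n = 4) and 40.3 ± 28.2 FPKM in FM (SD, n = 2). Noxo1, the organizer of the epithelial oxidase NOX1, stood at 16.7, 46.3, 1.796 and 2.37 FPKM in FMC 1 to FMC 4, against 0.384 and 0.0446 FPKM in FM 1 and FM 2. The groups did not overlap, and the log2 difference was 2.97 ± 1.21 (SE; limma, adjusted p = 0.853). Nox4, a constitutively active relative of Cybb, went the other way, at 0.0324, 0.780, 0.201 and 0.0585 FPKM in FMC 1 to FMC 4, against 4.96 and 2.09 FPKM in FM 1 and FM 2 (log2 difference -1.79 ± 0.57 SE; limma, adjusted p = 0.684). Both were named after their values were seen, as were Syk, Sod3, Runx1 and Rela in the following paragraphs, because their groups did not overlap. Among all genes tested, 4.34% were higher and 8.22% lower in every FMC library. Nox1, Nox3, Noxa1, Duox1 and Duoxa2 did not reach 1 FPKM in 2 libraries.

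Of 15 regulators of the enzyme tested, 6 were higher and 9 lower in FMC (median log2 difference -0.10). Prkcd, a protein kinase C that phosphorylates p47phox, stood at 195, 335 and 258 FPKM in FMC 1, FMC 3 and FMC 4, against 126 and 274 FPKM in FM 1 and FM 2. It has no value in FMC 2 and was left out of the fit. Prkcb, another such kinase, averaged 30.6 ± 12.2 FPKM in FMC (SD, n = 4) and 35.2 ± 23.7 FPKM in FM (SD, n = 2). Vav1, an exchange factor that loads Rac with GTP, was even, at 52.9 to 70.5 FPKM in FMC and 68.6 and 62.5 FPKM in FM. Syk, the kinase downstream of phagocytic receptors, was the 1 gene of this list whose groups did not overlap, with 24.5 to 26.5 FPKM in FMC and 12.3 and 21.9 FPKM in FM (log2 difference 0.61 ± 0.48 SE; limma, adjusted p = 0.993). Of all genes tested, 4.34% were likewise higher in every FMC library, and the difference of Syk was 0.22 without FM 1 and 1.00 without FM 2.

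Of the 8 NADPH supply genes 2 were higher and 6 lower in FMC, and their median of -0.69 was the lowest of the 5 lists. It depended on 1 library and on the filter. The median was -0.11 without FM 2, and -0.23 among genes with a mean of at least 5 FPKM. G6pdx, the enzyme that opens the pentose phosphate pathway, stood at 57.5, 21.2, 37.9 and 31.2 FPKM in FMC 1 to FMC 4, against 111 and 61.8 FPKM in FM 1 and FM 2. Each FMC value was lower than either FM value, as in 8.22% of all genes tested. The difference of G6pdx was -1.23 ± 0.53 (SE) on the log2 scale (limma, adjusted p = 0.902). The next enzyme that makes NADPH in the same pathway, Pgd, averaged 44.1 ± 18.7 FPKM in FMC (SD, n = 4) and 47.2 ± 33.6 FPKM in FM (SD, n = 2). Idh1, a cytosolic source of NADPH, ran from 3.24 to 28.0 FPKM in FMC and stood at 18.8 and 37.2 FPKM in FM 1 and FM 2, with overlap.

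Of the 19 tested genes listed for superoxide and peroxide handling, 9 were higher and 10 lower in FMC (median -0.10). The cytosolic superoxide dismutase Sod1 ran from 62.7 to 307 FPKM in FMC and stood at 146 and 265 FPKM in FM, and catalase (Cat) averaged 30.7 ± 5.8 FPKM in FMC (SD, n = 4) and 37.3 ± 5.6 FPKM in FM (SD, n = 2). The mitochondrial dismutase Sod2 was low throughout, at 0.874 to 1.40 FPKM in FMC and 1.81 and 2.68 FPKM in FM. The secreted dismutase Sod3 stood at 0.602, 2.19, 0.330 and 0.0696 FPKM in FMC 1 to FMC 4, against 5.19 and 11.8 FPKM in FM 1 and FM 2 (log2 difference -2.44 ± 0.77 SE; limma, adjusted p = 0.682). Sod2 and Sod3 were the 2 tested genes of this list whose values were all lower in FMC than in FM, a pattern that 8.22% of all genes tested shared.

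The factors known at phagocyte oxidase promoters had a median of 0.09, with 3 of 6 tested genes higher in FMC. Spi1, which encodes PU.1 and is listed as Sfpi1, stood at 139.5, 83.7, 132 and 179 FPKM in FMC 1 to FMC 4, against 77.3 and 140.5 FPKM in FM 1 and FM 2. FMC 4 was highest for both Spi1 and Cybb, whereas FM 1 had the lowest Spi1 and nearly the highest Cybb. The part of Spi1 in the level of Cybb was not tested. Irf1 stood at 12.2, 6.70, 9.36 and 47.5 FPKM in FMC 1 to FMC 4, against 8.48 and 5.38 FPKM in FM 1 and FM 2. Runx1, a regulator of blood cell development, averaged 72.6 ± 10.7 FPKM in FMC (SD, n = 4) and 43.4 ± 5.4 FPKM in FM (SD, n = 2), and it was higher in every FMC library. Rela, a subunit of NF-kappaB, was 13.7 ± 6.8 FPKM in FMC and 34.1 ± 5.9 FPKM in FM, without overlap and lower in FMC, and neither passed (limma, adjusted p = 0.993 for Runx1 and 0.939 for Rela). These 2 patterns were shared by 4.34% (higher) and 8.22% (lower) of all genes tested. Irf8 was not analysed here.

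**Figure D5:**
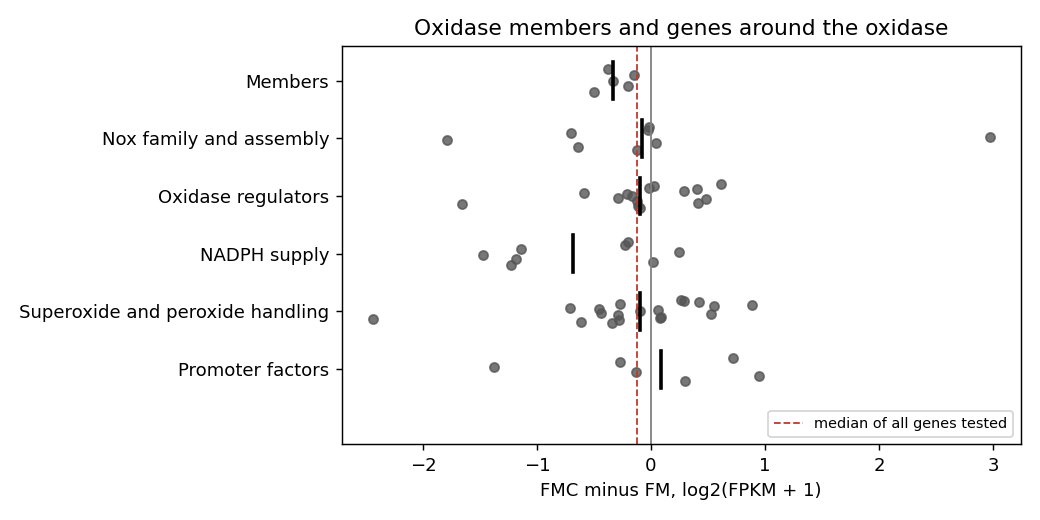
FMC minus FM difference in log2(FPKM + 1) of each tested gene (points) and the median (bar) for the 5 oxidase and channel genes and for the 5 lists of genes around the oxidase, with the median of all genes tested as a dashed line. The lone point near 3 is Noxo1, the medians of 3 lists lie close to the dashed line, and that of NADPH supply lies at -0.69 (-0.11 without FM 2).

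Other white blood cells also make the oxidase, so their markers are given beside these levels. The 12 neutrophil markers summed to 385 to 678 FPKM in FMC and to 546 and 314 FPKM in FM, with Elane and Retnlg listed at 0 in at least 1 library. Csf3r alone gave 158 to 301 FPKM in FMC and 167 and 263 FPKM in FM, and without it the sums were 520, 180.1, 89.0 and 255 FPKM in FMC 1 to FMC 4, against 380 and 50.9 FPKM in FM 1 and FM 2. Ly6g stood at 8.06 to 23.0 FPKM in FMC and at 6.25 and 0.408 FPKM in FM, without overlap. Retnlg went the other way without overlap, at 0, 0, 0.165 and 1.64 FPKM in FMC 1 to FMC 4. In FM 1 and FM 2 Retnlg stood at 3.43 and 4.45 FPKM. Of the 10 neutrophil markers tested, 6 were higher and 4 lower in FMC. Among all genes tested, 4.34% were higher and 8.22% lower in every FMC library. T cell markers summed to 20.3 to 89.3 FPKM in FMC and to 17.6 and 21.9 FPKM in FM, and B cell markers to 14.1 to 112 FPKM in FMC and to 34.5 and 106 FPKM in FM. FMC 1, where Cybb was lowest, had the highest sums of neutrophil, T cell and B cell markers, the last close to FM 2 (112 against 106 FPKM). Its sums of monocyte (67.1 FPKM) and border-associated macrophage markers (330 FPKM) were not the highest. The 6 border-associated macrophage markers, among them Mrc1 and Pf4, all averaged lower in FMC, as did 56.5% of all genes tested, with 0 of 6 past the threshold (limma, smallest adjusted p = 0.826), summing to 176 to 330 FPKM in FMC and to 403 and 508 FPKM in FM. The 6 monocyte markers with values in all libraries summed to 44.6 to 89.7 FPKM in FMC and to 91.3 and 72.1 FPKM in FM. The part of these cell types in the levels of the oxidase genes was not tested.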

How the data were processed

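RNA of sorted optic nerve microglia had been amplified with the Ovation RNA-Seq method and sequenced as paired ends, per the labels' protocols. Build mm9, Cufflinks 2.0.2, Bowtie2 2.0.0, TopHat2 2.0.4 and CASAVA 1.8.2 appear, without roles, in the submitters' processing notes. Strand handling is not stated. The authors deposited FPKM values, and depth in reads is unknown. Of 37447 genes, 426 lack a value in some library and were left out. In every library 32 of 37 mitochondrial genes are listed at 0, so a 0 may be a failed estimate.

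The 18208 genes that reached 1 FPKM in 2 or more libraries were tested two-sided as log2(FPKM + 1) in limma 3.58.1 (R 4.3.3), whose variance prior followed mean level. P-values were adjusted over all of them by Benjamini-Hochberg, with a threshold of 0.05. A fold on this scale understates changes of low genes. P-values judge the difference between groups against the spread between these libraries, moderated by that prior. The members, lists and tests were chosen with earlier results of these data known. The 6 members are always named, with the first 3 genes of each list, any list gene past the threshold, other parts of the complex, and the 5 nearest genes to Cybb and Hvcn1 (small RNAs, predicted genes and bare identifiers left out). Some genes of the complex and lists are not reported here and were left out of the counts over those lists. Balance tests planned with Cyba were not made. Alternatives covered pseudocount, filter, scaling, trend, weights, sex, blocks and omitted libraries.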

Additional observations from a re-analysis of the deposited data

Results flagged for a closer look

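Of 42 genes examined with values in every library, 2 had a library far from the others in the FMC group. Irf1, an interferon-induced transcription factor, stood at 47.5 FPKM in FMC 4 and at 6.70 to 12.2 FPKM in the other FMC libraries, and the gap to the nearest of them took up 0.865 of the range of the group, above Dixon's 95% critical value for 4 samples. Nf1 stood at 138 FPKM in FMC 4 and at 48.0 to 58.1 FPKM in the other FMC libraries, with a gap of 0.888 of the range. Chance marks about 1 group in 20 in this way. Cybb (140.0 FPKM) was highest in FMC 4 too, but was not flagged and was nearly equal in FM 1 (139 FPKM). Ncf1 in FMC 4 (64.8 FPKM) lay below its mean of 82.5 FPKM. A link between these levels was not tested.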

How the results depend on the processing

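The 5 oxidase and channel genes stayed short of the threshold in every alternative fit that kept both FM libraries (limma, smallest adjusted p = 0.947). Over all 17 alternative fits, 78 of 85 differences kept their sign. The filter and trend do not enter the difference of a gene, and the sexes are balanced. Under those settings the sign could not change, so the tally overstates stability. Without FM 2 the difference became 0.08 for Ncf1, 0.11 for Ncf4 and 0.47 for Rac2. With libraries centred on microglia markers Ncf1 became 0.12 and Rac2 0.17, and with dates 1 day apart as a block Ncf1 became 0.10. With 1 library left out, the differences ran from -0.97 to -0.02 for Cybb, -0.47 to 0.08 for Ncf1, -0.76 to 0.11 for Ncf4, -0.77 to 0.47 for Rac2 and -0.68 to -0.08 for Hvcn1. They ran from -0.31 to 0.06 for Rac1 and -1.45 to 0.18 for Cybc1. Rac1 was 0.19 with centring and 0.11 with the date block. The balance of Cybb against Ncf1 ran from -1.04 to 0.45, against Ncf4 from -1.08 to 0.74, against Rac2 from -1.44 to 0.75 and against Hvcn1 from -0.29 to 0.17, with positive values without FMC 1 or FM 1. Among list genes Prkcb ran from -0.82 to 0.62, Pgd from -0.76 to 0.80, Sod1 from -0.77 to 0.09 and Spi1 from -0.12 to 0.73. List medians with 1 library left out ran from -0.84 to -0.11 for NADPH supply, -0.20 to 0.06 for the Nox family, -0.16 to 0.31 for regulators, -0.38 to 0.27 for superoxide and peroxide handling and -0.04 to 0.31 for promoter factors.

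Across all genes, the 0 higher and 5 lower calls became 1 and 0 with a pseudocount of 0.1, 0 and 33 without a filter, 0 and 0 with a mean of at least 5 FPKM, 0 and 10 without a trend, 0 and 0 with sex as a covariate and 2 and 1 with the date block. Leaving out 1 library gave 0 to 4 higher and 0 to 4 lower, with 4 higher only without FMC 4. The cause was not tested. With the replicate number as a block there were 0 and 0 calls, and Cybb became -1.34 and Hvcn1 -0.89. FMC 1 and FM 1 share a number, as do FMC 2 and FM 2, and their deviations correlated at 0.03 and -0.06 across genes. With 2 FM libraries the FM deviations mirror each other, so such correlations cannot decide on pairing. FMC 1, for example, gave 0.03 with FM 1 and -0.03 with FM 2. The number is not known to pair libraries. Centring on microglia markers gave a median of all genes of 0.20, against -0.12 without it. With 2 FM libraries, a level 2-fold lower in FMC lay within the interval of each of the 5 genes.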
